A study of Citrus sinensis and Citrus junos and Citrus trifoliata with 12 samples.

Results

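Grafted orange trees carried one scion on 2 rootstocks, and 145 of the 26559 gene IDs listed in any library were lower in scion leaves on the first rootstock while their stem level was about the same on both. The scion was 'Lane Late' navel orange, a Citrus sinensis, and the rootstock was either Ziyang xiangcheng (Citrus junos, Cj) or trifoliate orange (Poncirus trifoliata, Pt). A tree's roots belong to its rootstock, so root libraries compare 2 species while stem and leaf libraries compare one scion on different roots. Roots, stems and leaves on each rootstock gave 6 groups of 2 libraries, 12 in all, from trees planted in one orchard in 2009, labelled 140 DAF and sequenced in 2015. Saline-alkali stress appears in the title of the series, yet no label divides libraries by stress. The design text calls the replicates biological without naming the trees sampled, so the tests reflect variation among these libraries and possibly not among trees.

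The 145 genes were chosen by their deposited FPKM (fragment counts scaled by the authors to gene length and library size). Each had at least 2 FPKM in both Pt leaf libraries, and the lowest Pt leaf value was at least 1.5 times the highest Cj leaf value. Mean stem was at least 1 FPKM and at most 3 times mean leaf, and the ratio of mean Cj stem to mean Pt stem lay between 0.8 and the inverse of 0.8. A limit of 300 genes was not reached. The leaf and stem values of the members are therefore given as a description and support nothing, and the root libraries, which the choice did not use, carry the tests.

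In a grafted tree the rootstock supplies the scion with water, mineral ions and hormones, and some RNAs and proteins move across the graft union. Trifoliate orange is widely used as a citrus rootstock and is known to suffer on calcareous, alkaline soils, where scion leaves turn yellow from lack of iron. Ziyang xiangcheng is grown in China as a rootstock that tolerates such soils better. The gene IDs could not be paired with names, so members are given by ID without a function and are ordered by where in the tree they were expressed.

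The libraries held 9356633 to 11383332 estimated counts, and all 145 members passed the filter on low counts and were among the 21261 genes tested. Tests used edgeR's quasi-likelihood method on counts, with p-values adjusted by the Benjamini-Hochberg method across those genes and calls made at 0.05. Members made up 0.386% and 0.421% of the counts in Cj leaves, 0.804% and 0.807% in Pt leaves and 0.550% to 0.618% in the 4 stem libraries. In roots they made up 1.20% and 1.21% on Cj and 0.959% and 0.991% on Pt, more than in any scion library. Single members weighed heavily in this. In Cj root replicate 1, Cs4g03200, Cs4g11150 (named after its values were seen) and Cs3g18100 held 24322.5, 14893.9 and 11723.9 of 9629543 counts. In Pt root replicate 1 they held 6205.74, 17897.3 and 7066.41 of 9487777. The median member stood at 7.24 and 7.41 FPKM in Cj leaves and at 13.1 and 15.0 FPKM in Pt leaves. It stood at 10.0 to 11.4 FPKM in stem, at 12.3 and 12.8 FPKM in Cj roots and at 7.72 and 8.28 FPKM in Pt roots. In bulk tissue, fewer cells of a type and less RNA per cell cannot be told apart.

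**Figure D1:**
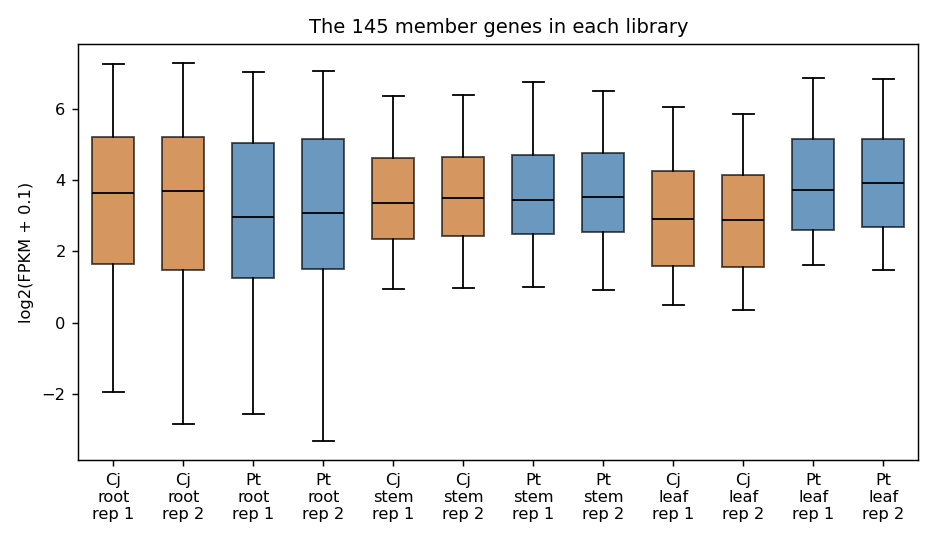
Levels of the 145 members as log2(FPKM + 0.1) in each of the 12 libraries, orange for trees on Cj and blue for trees on Pt; boxes span the quartiles, black lines are medians and whiskers reach the 5th and 95th percentiles. The medians of the leaf libraries on Cj lie lowest, at 7.24 and 7.41 FPKM. The choice put Cj leaf below Pt leaf and did not fix its place against stem or roots. The stem libraries lie level, and the root libraries spread widest.

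The leaf difference was modest for most members. The mean Pt leaf level exceeded the mean Cj leaf level by a median of 1.98 times, with a range of 1.54 to 8.80 times, and 68 members differed at least 2-fold and 13 at least 3-fold by this measure. The lowest Pt leaf library stood above the highest Cj leaf library by a median of 1.66 times, and by at least 2 times in 24 members. Just inside the limit were orange1.1t03123, at 43.3 and 39.7 FPKM on Cj and 65.1 and 73.7 FPKM on Pt, and Cs8g03550, at 7.80 and 7.24 against 12.2 and 11.7 FPKM. Just outside it were Cs2g18040, at 2.62 and 2.72 FPKM on Cj and 4.07 in both libraries on Pt, and Cs1g24150, at 2.81 and 3.51 against 5.24 and 5.45 FPKM.

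Cs5g28270 had the largest ratio of lowest Pt leaf to highest Cj leaf, 4.03, and the highest mean Pt leaf level. In leaf it stood at 210.0 and 172 FPKM on Cj and at 1010.4 and 846 FPKM on Pt. In stem it stood at 436 and 452 FPKM on Cj and at 417 and 688 FPKM on Pt, where the groups overlapped. In roots it stood at 52.8 and 31.9 FPKM on Cj and at 4.32 and 9.38 FPKM on Pt, so that the rootstock order in roots was the opposite of that in leaf. The root difference passed the test, with a log2 fold change (Cj minus Pt) of 2.70 ± 0.46 (SE, edgeR adjusted p = 3.6e-04). At 204 bases it is the shortest member, close to the fragment length of about 200 bases that the protocol gives. The ratio of mean levels was largest, at 8.80, in Cs3g09740, which is named after its values were seen. Its Cj leaf libraries stood at 1.99 and 0.02 FPKM and its Pt leaf libraries at 6.29 and 11.4 FPKM, so the Cj replicates themselves lay far apart.

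Orange1.1t03719 came next when 0.1 FPKM was added to the highest Cj leaf value, the score fixed for naming, and without that addition Cs3g09740 (3.16) stood just ahead of it (3.05). Its leaf values were 8.52 and 7.70 FPKM on Cj and 27.8 and 26.0 FPKM on Pt, and its stem values were 13.5 and 11.1 FPKM on Cj and 13.2 and 10.4 FPKM on Pt. Pt leaf therefore stood above all 4 stem libraries and Cj leaf below them. Its highest levels were in roots, at 81.1 and 82.8 FPKM on Cj and 55.6 and 78.2 FPKM on Pt, a difference that did not pass the test (log2 fold change 0.37 ± 0.18 SE, edgeR adjusted p = 0.095). Orange1.1t00956 was the next most abundant member in Pt leaf. It stood at 279 and 236 FPKM in Cj leaf, 457 and 434 FPKM in Pt leaf, 249 and 246 FPKM in Cj stem, 251 and 307 FPKM in Pt stem and 37.8 to 47.6 FPKM in the 4 root libraries. Here Cj leaf stood near the stem level and Pt leaf stood above it.

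**Figure D2:**
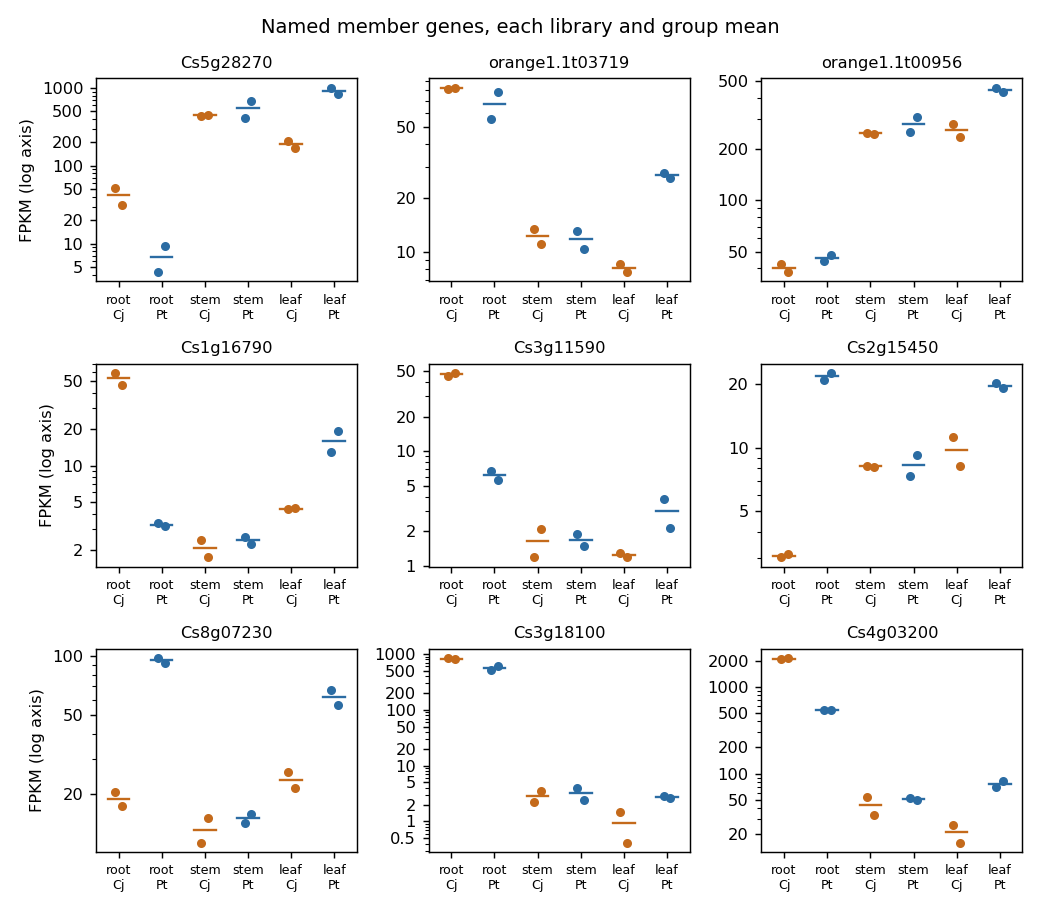
FPKM of 9 named members in every library on a log axis, with orange for trees on Cj and blue for trees on Pt; points are libraries and short lines are group means of 2. The Pt leaf points lie above the Cj leaf points in every panel, as the choice requires, while roots of Cj lie above roots of Pt in Cs5g28270, orange1.1t03719, Cs1g16790, Cs3g11590, Cs3g18100 and Cs4g03200 and below them in Cs2g15450, Cs8g07230 and orange1.1t00956.

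In the fit over all genes, 107 of the 145 members were called lower in leaf on Cj at an adjusted p under 0.05 (edgeR's quasi-likelihood test), beside 3.88% of all genes and 4.74% of the 15436 that met the conditions on levels alone (Pt leaf, stem minimum and the stem to leaf limit). The choice used this contrast, so nothing is read from the count. The count fell when any 1 leaf library was left out, as did the share of all genes called lower. Median log2 fold changes in leaf were -0.97 for members and 0.00 for all genes. In stem 0 of the 145 were called, beside 2.51% of all genes called higher and 1.91% called lower (2.61% and 2.26% of genes meeting the level conditions), and 3 members had an unadjusted p under 0.05 in that test. The stem ratio limits leave no room for calls, since 0 of the 11328 tested genes that met every condition but the leaf ratio were called in stem. Within those limits 97 of 145 members had the lower mean stem FPKM on Cj, and the median ratio of Cj to Pt stem was 0.916. By edgeR's log2 fold change in stem, 93 of 145 members were lower on Cj, with a median of -0.108. So were 5878 of those 11328 genes, with a median of -0.0091, and 10725 of all 21261. Members thus leaned lower on Cj in stem as well, and this lean was not tested.

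That members differ in leaf alone is a property of the limits more than of a test. The difference between the leaf effect and the stem effect was called lower in 9 members (edgeR's quasi-likelihood test). In that direction 0.226% of all genes and 0.233% of those meeting the level conditions were called. Of the 11328 that met every condition but the leaf ratio, 9 were, so the leaf ratio kept every such gene. The choice used all these leaf and stem values, so the 9 calls are a description and support nothing. The 9 were Cs5g28270, orange1.1t03719, Cs4g18450, Cs4g11090, Cs8g15740, orange1.1t00728, Cs8g07230, Cs2g13790 and Cs6g19260, named here after their values were seen. For the other 136 members the test did not show the leaf and stem differences to be unequal. The name leaf alone thus describes the limits and is not a tested result for any member. The members' median absolute log2 difference between replicates was 0.23 in Cj stem and 0.21 in Pt stem, against 0.14 and 0.15 for the genes that met every condition but the leaf ratio, 0.18 against 0.15 in Cj leaf, 0.17 against 0.14 in Pt root, 0.15 against 0.14 in Pt leaf and 0.11 in both sets in Cj root. These differences in spread were not tested, and members stood lower in stem than genes meeting the level conditions (median 10.9 against 16.4 FPKM).

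Cs8g15740 showed the pattern with little spread. It stood at 22.4 and 22.5 FPKM in Cj leaf and at 53.0 and 52.1 FPKM in Pt leaf, with 41.8 and 49.5 FPKM in Cj stem and 54.3 and 52.0 FPKM in Pt stem. Pt leaf was thus level with Pt stem, and Cj leaf stood below every other scion library. Cs6g19260 showed another form, at 30.7 and 30.6 FPKM in Cj leaf and 52.1 and 53.9 FPKM in Pt leaf, with 25.8 and 32.1 FPKM in Cj stem and 23.3 and 24.8 FPKM in Pt stem. There Cj leaf was level with stem and Pt leaf stood above every other scion library.

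Setting each leaf against the stem on the same rootstock separated these forms. In 40 members leaf was called above stem on Pt and not called on Cj, and in 45 members leaf was called below stem on Cj and not called on Pt. Leaf was above stem on both rootstocks in 14 members and below stem on both in 10, and 32 were called on neither. The remaining 4, Cs5g28270, Cs4g18450, Cs4g03200 and orange1.1t00593, of which Cs4g18450 and orange1.1t00593 are named after their values were seen, were above stem on Pt and below stem on Cj. The choice used all these values, so the split is a description. The background for leaf above stem was 20.1% of all genes on Pt and 21.7% on Cj, and for leaf below stem 20.4% and 22.4%. Among genes meeting the level conditions these were 25.8% and 27.4% above, and 13.8% and 16.3% below. With library totals alone in place of TMM (edgeR's scaling by trimmed means), the median of all genes moved to -0.14 for leaf minus stem on either rootstock. Members above stem on Pt then numbered 52 in place of 58, beside 15.5% of all genes. Those below stem on Cj numbered 70 in place of 59, beside 27.9% of all genes.

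**Figure D3:**
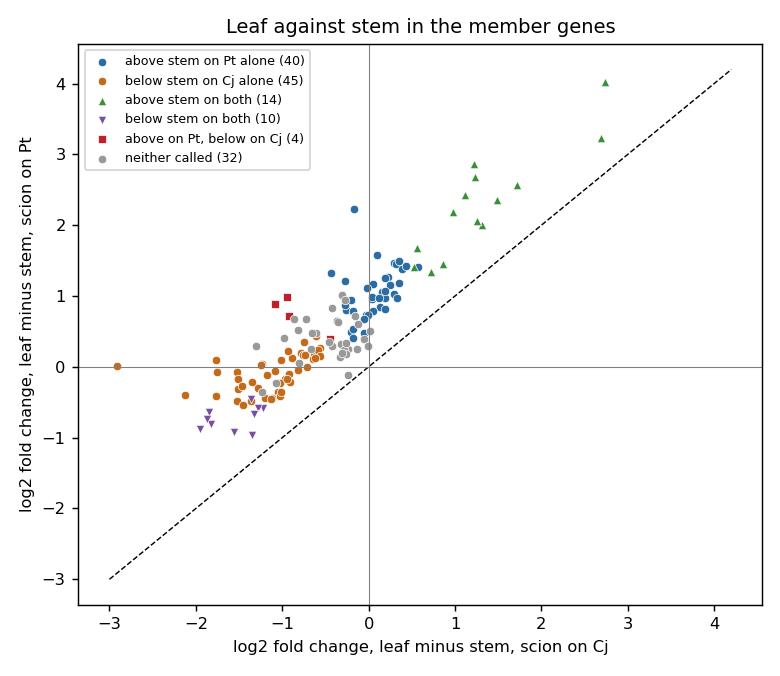
Log2 fold change of leaf minus stem for the 145 members in the scion on Cj (horizontal) and on Pt (vertical), coloured by which of the 2 contrasts edgeR called; the dashed line marks equal values. All 145 points lie above the line, as the choice requires, and they run from leaf below stem on both rootstocks (10 members) to leaf above stem on both (14 members).

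The members with the largest leaf excess over stem were Cs6g22130 and Cs7g27360. Cs6g22130 stood at 2.88 to 3.64 FPKM in the 4 stem libraries, at 11.8 and 27.9 FPKM in Cj leaf and at 46.1 and 49.7 FPKM in Pt leaf, and at 0 in all 4 root libraries. Its Cj leaf replicates differed more than 2-fold. Cs7g27360 stood at 7.34 to 11.5 FPKM in stem, at 51.9 and 46.2 FPKM in Cj leaf and at 94.6 and 83.1 FPKM in Pt leaf. The next on Cj with enough counts to be named was Cs2g16810, at 30.9 and 29.3 FPKM in Cj leaf against 12.1 and 14.4 FPKM in Cj stem, and at 46.7 and 47.3 FPKM in Pt leaf.

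Among called members with a mean log2 CPM (counts scaled to library size) of at least 3 and no overlap between groups, the largest leaf deficits were those of Cs2g13790 and Cs4g07860 on Cj, and Cs3g05520 and Cs5g22140 on Pt. Cs2g13790 stood at 15.7 and 9.50 FPKM in Cj leaf and 63.2 and 57.7 FPKM in Cj stem, against 29.6 and 44.8 FPKM in Pt leaf and 48.7 and 58.4 FPKM in Pt stem. Cs4g07860 stood at 20.5 and 15.2 FPKM in Cj leaf and 82.1 and 57.4 FPKM in Cj stem, against 33.6 and 37.2 FPKM in Pt leaf and 72.6 and 64.2 FPKM in Pt stem. In both genes leaf lay below stem on either rootstock, by more on Cj. On Pt the difference was called for Cs4g07860 and not for Cs2g13790 (log2 fold change -0.39, edgeR adjusted p = 0.15). Cs5g22140 stood at 23.7 and 23.4 FPKM in Pt leaf and 52.9 and 41.7 FPKM in Pt stem, and at 13.9 and 12.04 FPKM in Cj leaf. Cs3g05520 stood at 2.95 and 3.09 FPKM in Pt leaf and 6.68 and 6.18 FPKM in Pt stem, and at 1.89 and 1.86 FPKM in Cj leaf.

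Roots were the first organ the choice left free, and many members were more abundant there than in stem. On Cj, 81 of the 145 members (55.9%) were higher in root than in stem and 45 (31.0%) were lower, beside 35.6% and 43.4% of all genes tested. On Pt, 67 members (46.2%) were higher and 55 (37.9%) lower, beside 34.9% and 44.4% of all genes. The choice set a minimum in stem, so genes that met the same conditions are the closer background. Of the 15436 genes meeting the level conditions, 33.4% were higher and 47.5% lower on Cj, and 33.7% higher and 47.4% lower on Pt. Of the 11328 that also met the stem ratio limits, 35.4% were higher and 44.8% lower on Cj, and 36.6% higher and 43.7% lower on Pt. The members' median log2 fold change was 0.82 on Cj and 0.20 on Pt, against -0.33 and -0.30 for the genes meeting the level conditions. With genes at 0 in both root libraries set at the bound that 3 counts per library allow, the medians were again 0.82 and 0.20.

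The direction of a root minus stem difference depended on scaling, with TMM factors of 0.784 to 0.845 in roots and 1.14 to 1.19 in stem. With library totals alone the median of all genes moved from -0.22 to -0.78 on Cj and from -0.26 to -0.77 on Pt. Members then split 66 higher and 56 lower on Cj and 52 higher and 65 lower on Pt, so the lean on Pt turned. The genes meeting the level conditions then stood at 21.3% higher and 61.0% lower on Cj and 22.1% and 59.8% on Pt. Members were shorter than those genes, with a median length of 1434 against 1739.5 bases, and lower in stem, with a median of 10.9 against 16.4 FPKM. The part of length and level in the root excess was not tested.

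**Figure D4:**
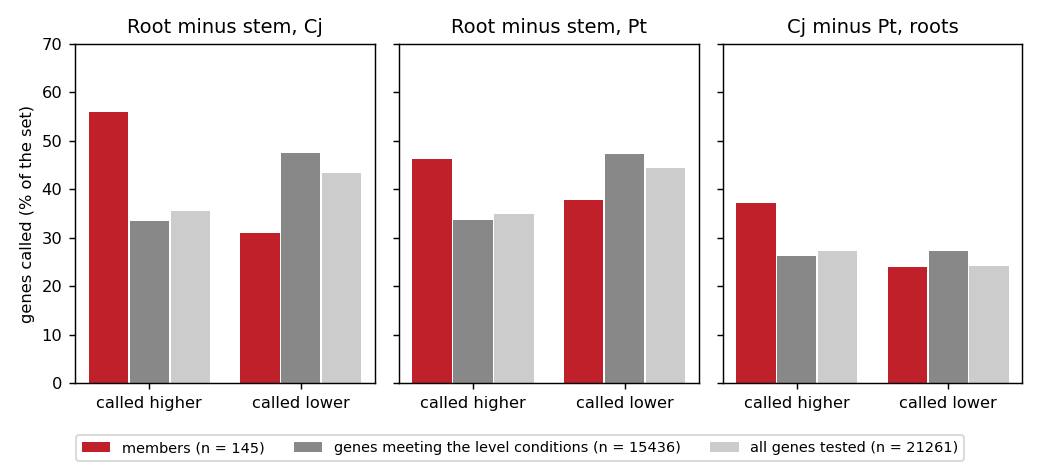
Percent of genes called higher and lower at an adjusted p under 0.05 (edgeR's quasi-likelihood test) for root minus stem on each rootstock and for Cj minus Pt in roots; red bars are the 145 members, dark grey the 15436 genes that met the level conditions and light grey all 21261 genes tested. Red bars stand above both backgrounds for higher calls in all 3 panels (55.9%, 46.2% and 37.2%).

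By mean FPKM, 76 members (52.4%) stood above their stem level in roots, 48 (33.1%) stood between 1 FPKM and their stem level, and 21 (14.5%) stood below 1 FPKM. Among all genes tested these shares were 33.5%, 44.9% and 21.6%. Among the genes meeting the level conditions they were 30.8%, 55.4% and 13.8%. In roots of both rootstocks 63 members (43.4%) were called above stem and 40 (27.6%) below, beside 27.3% and 36% of all genes and 26% and 39.3% of those meeting the level conditions. Of the members above stem in roots, 35 were called above stem in Pt leaf and 29 below stem in Cj leaf. These counts were 13 and 26 for members between 1 FPKM and stem and 10 and 4 for members below 1 FPKM. The split by root level and the leaf calls share the stem values, and a difference between the 3 classes was not tested. At 0 in all 4 root libraries were 5 members, named after their values were seen: Cs7g23500, Cs5g20100, Cs6g22130, orange1.1t04718 and Cs8g02050. So were 628 of the 21261 genes tested and 295 of the 15436 meeting the level conditions.

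Among called members whose log2 CPM averaged 3 or more, with no overlap between groups, Cs3g18100 and Cs4g03200 had the largest root excess over stem on Cj, and Cs3g18100 and Cs7g32070 on Pt. Cs3g18100 stood at 853 and 813 FPKM in Cj roots and 522 and 618 FPKM in Pt roots, against 2.27 to 4.06 FPKM in stem, 1.45 and 0.42 FPKM in Cj leaf and 2.88 and 2.68 FPKM in Pt leaf. Its scion values rested on few reads, 23.4 and 6.43 estimated counts in Cj leaf and 46.8 and 42.1 in Pt leaf. Its log2 fold changes of root minus stem were 8.71 ± 0.31 on Cj (SE, edgeR adjusted p = 7.6e-11) and 7.97 ± 0.31 on Pt (edgeR adjusted p = 1.4e-10).

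Cs4g03200 was the most abundant member in Cj roots, at 2076 and 2151 FPKM on Cj and 538 and 544 FPKM on Pt. In stem it stood at 53.9 and 33.6 FPKM on Cj and 52.7 and 49.1 FPKM on Pt, and in leaf at 25.9 and 16.1 against 70.5 and 82.0 FPKM. The order of the rootstocks thus reversed between roots and leaves, with no overlap in either organ. Its log2 fold change of root minus stem on Cj was 6.15 ± 0.27 (SE, edgeR adjusted p = 3.9e-10), and that of Cj minus Pt in roots was 2.04 ± 0.22 (edgeR adjusted p = 1.0e-05). Cs7g32070 had its root excess on Pt, at 520 and 485 FPKM against 23.8 and 19.7 FPKM in Pt stem, with 141 and 156 FPKM in Cj roots. Its log2 fold change of root minus stem on Pt was 5.03 ± 0.18 (SE, edgeR adjusted p = 7.5e-11).

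By the same criteria, the members lowest in roots relative to stem were Cs8g13110 and Cs9g04880 on Cj and Cs5g28270 and Cs9g04880 on Pt. The level required, an average over root and stem, left out members nearly absent from roots, whose deficits were larger. One was Cs5g06860, named after its values were seen, at 0.26 and 0.25 FPKM in Cj roots against 121 and 125 FPKM in Cj stem. Its log2 fold change of root minus stem on Cj was -8.25 ± 0.51 (SE, edgeR adjusted p = 1.8e-08). Cs9g04880 stood at 1.87 and 1.47 FPKM in Cj roots and 1.01 and 1.68 FPKM in Pt roots, against 17.1 and 18.5 FPKM in Cj stem and 18.6 and 25.2 FPKM in Pt stem. Cs8g13110 stood at 2.12 and 1.84 FPKM in Cj roots and 25.8 and 28.0 FPKM in Cj stem. On Cj the log2 fold changes of root minus stem were -2.85 ± 0.22 for Cs9g04880 (SE, edgeR adjusted p = 5.8e-08) and -3.20 ± 0.25 for Cs8g13110 (edgeR adjusted p = 7.3e-08). On Pt they were -3.53 ± 0.22 for Cs9g04880 (edgeR adjusted p = 1.1e-08) and -5.83 ± 0.37 for Cs5g28270 (edgeR adjusted p = 1.1e-08).

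Between the rootstocks' own roots, more members were higher in Cj than lower. In Cj roots 54 members (37.2%) were higher and 35 (24.1%) lower than in Pt roots, beside 27.4% and 24.3% of all genes tested and 26.2% and 27.3% of the genes meeting the level conditions, and 25.4% and 28.3% of those also within the stem ratio limits. The share of lower calls was thus near the background, and the share of higher calls above it. The median log2 fold change of the members was 0.36, against 0.00 for the genes meeting the level conditions, and 0.34 with genes at 0 in either group's libraries set at their bound. At least 2-fold differences were called higher in 32 members (22.1%) and lower in 17 (11.7%), beside 17% and 12% of all genes and 13.4% and 11.5% of those meeting the level conditions. Both Cj root libraries stood above both Pt root libraries in 71 members (49.0%) and below them in 48 (33.1%), beside 37.3% and 39.3% of all genes and 35.2% and 43.4% of those meeting the level conditions. Of the 107 members called lower in leaf on Cj, 41 (38.3%) were called higher and 32 (29.9%) lower in Cj roots. Of the 825 genes of the whole table called lower in leaf on Cj, 30.4% were called higher and 32.6% lower in Cj roots, and of the 731 meeting the level conditions 29.7% and 34.2%.

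These roots are of different species counted against shared IDs. Reads of either species may match the reference less well for some genes and lower its values, and the part of this in the root differences was not tested. Without 1 of the root libraries fewer members were called higher and fewer lower, and the shares of all genes called fell too.

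**Figure D5:**
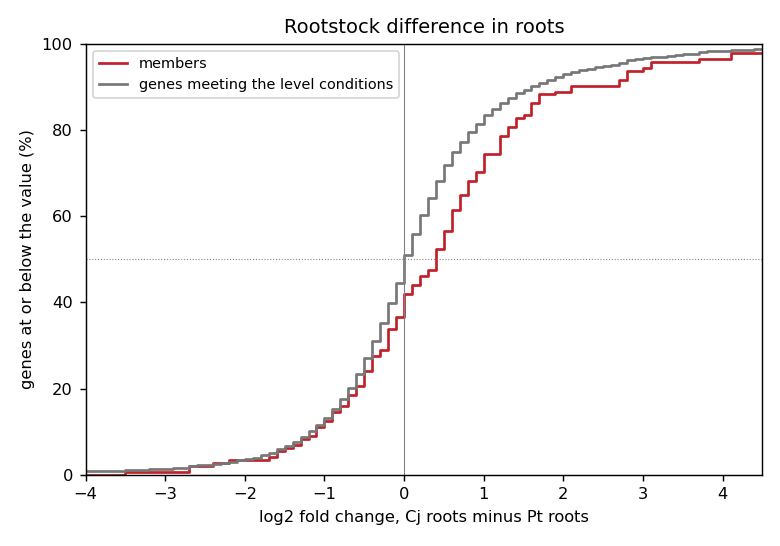
Cumulative percent of genes by log2 fold change of Cj roots minus Pt roots, red for the 145 members and grey for the genes that met the level conditions. The curves run together below a log2 fold change of about -1 and part above it, where the members' curve lies to the right, with medians of 0.36 and 0.00.

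By the same criteria, Cs1g16790 and Cs3g11590 were highest in Cj roots relative to Pt roots. Cs1g16790 stood at 58.7 and 46.9 FPKM in Cj roots and at 3.36 and 3.15 FPKM in Pt roots, while in leaf it stood at 4.35 and 4.48 FPKM on Cj and 12.9 and 19.2 FPKM on Pt, and in stem at 1.74 to 2.58 FPKM. Its root log2 fold change was 4.09 ± 0.24 (SE, edgeR adjusted p = 8.7e-08). The rootstock order in roots was thus the opposite of that in leaf. Cs3g11590 stood at 45.8 and 48.3 FPKM in Cj roots and 6.67 and 5.60 FPKM in Pt roots, against 1.19 to 2.08 FPKM in stem, 1.28 and 1.18 FPKM in Cj leaf and 3.81 and 2.14 FPKM in Pt leaf. Its root log2 fold change was 3.01 ± 0.26 (SE, edgeR adjusted p = 1.4e-06).

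Cs2g15450 and Cs8g07230 were, again by these criteria, lowest in Cj roots relative to Pt roots. Cs2g15450 stood at 3.03 and 3.15 FPKM in Cj roots and 21.0 and 22.7 FPKM in Pt roots, at 11.3 and 8.25 against 20.2 and 19.1 FPKM in leaf, and at 7.36 to 9.27 FPKM in stem. Cs8g07230 stood at 20.4 and 17.4 FPKM in Cj roots and 97.6 and 92.4 FPKM in Pt roots, at 25.7 and 21.5 against 67.5 and 56.1 FPKM in leaf, and at 11.3 to 15.8 FPKM in stem. In these 2 IDs roots and leaves shared the order of the rootstocks and stem was level, as the choice requires. Their root log2 fold changes were -2.74 ± 0.18 (SE, edgeR adjusted p = 2.2e-07) and -2.26 ± 0.16 (edgeR adjusted p = 3.0e-07). At least 4-fold lower in Cj roots were these and, named after their values were seen, Cs7g19870 and Cs1g09300. With genes at 0 set at their bound, 4 members were called at least 4-fold lower and 14 higher. These counts were 790 and 1734 of all 21261 genes, and 414 and 808 of the 15436 meeting the level conditions.

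Root and stem also stood in opposite order on the 2 rootstocks in a few members. In 6 members (4.14%) root was called above stem on Cj and below stem on Pt, beside 2% of all genes and 2.16% of those meeting the level conditions. The reverse was called in 2 members (1.38%), Cs2g15450 and Cs5g22140, beside 1.85% and 2.2%. Among the 6 was Cs1g12460, named after its values were seen, at 48.2 and 48.6 FPKM in Cj roots, 7.12 and 5.66 FPKM in Pt roots and 16.9 to 22.4 FPKM in stem. Cs5g22140 stood at 15.1 and 12.8 FPKM in Cj roots, 45.99 and 44.4 FPKM in Pt roots and 41.7 to 52.9 FPKM in stem. Roots of both rootstocks stood clear of all 4 stem libraries in Cs1g12460, while in Cs5g22140 the Pt roots lay within the range of the stem libraries. Its mean FPKM on Pt was lower in root (45.2) than in stem (47.3), so the call of root above stem there, a log2 fold change of 0.41, rests on TMM scaling.

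The members were not gathered in one stretch of the ID series. Of the 145, 25 (17.2%) had IDs of the form that starts with orange1.1t. That share was 16.5% of all genes tested and 15.5% of those meeting the level conditions. The rest were spread over all 9 numbered Cs prefixes, from 7 members (Cs9g, 4.83% against 6.43% and 6.22%) to 20 (Cs5g, 13.8% against 12.7% and 12.5%). Only 2 pairs of members had neighbouring IDs, which is the longest run. Orange1.1t00727 stood at 60.0 and 48.4 FPKM in Cj leaf and 115 and 98.0 FPKM in Pt leaf, and its neighbour orange1.1t00728 at 93.9 and 87.4 against 218 and 205 FPKM. Orange1.1t04405 stood at 24.8 and 24.4 FPKM in Cj leaf and 44.9 and 42.0 FPKM in Pt leaf, and orange1.1t04406 at 6.01 and 6.05 against 11.1 and 11.4 FPKM. The levels differed within each pair while Pt leaf stood above Cj leaf in all 4 IDs. A single transcript was listed for 103 members (71.0%), against 64.8% of all genes tested and 55.7% of those meeting the level conditions.

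The choice of genes sits beside others of the same kind. The same limits with the rootstocks exchanged were met by 110 genes. Of 471 genes that met the level conditions and the leaf ratio, 293 fell below the stem ratio limits, being lower on Cj in stem as well, and 33 lay above them, so the 145 are the smaller share of the genes lower in leaf on Cj. The number of genes passing turned on single libraries. Leaving out a leaf library, which eases the demand that groups not overlap, let 288 (Pt leaf replicate 2), 314 (Cj leaf replicate 2), 369 (Pt leaf replicate 1) or 371 (Cj leaf replicate 1) genes pass. Of the 145 members, 142 to 145 were among them, so leaving out a leaf library mainly let other genes in. Leaving out a stem library let 114 to 175 pass, of which 96 to 119 were among the 145.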

How the data were processed

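Poly(A) RNA was selected, fragmented and copied from random primers, per the labels' protocols, and sequenced on a BGISEQ-500, per the series' design text. Not given in the sources used here were the aligner, counting tool, annotation, build and strand setting. Genes that overlap or have close copies may share reads. The authors deposited one table per library. Per the file headers it gives a gene length in bases, an expected count per gene, which the authors estimated and did not scale to depth, and an FPKM, scaled by the authors to length and library size. Between 73.1% and 76.5% of listed counts were whole within 0.005. Genes not listed for a library were set to 0. Of 26559 IDs, 0 matched any of 29331 genes in RefSeq's table for DVS_A1.0, so lists based on gene descriptions could not be applied and no sequences are shown.

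The members and lists were chosen with earlier results of these data known. Members were found on FPKM as deposited. Expected counts were rounded and tested with edgeR 4.0.16 (quasi-likelihood test, filterByExpr, TMM; R 4.3.3) in 1 model of 6 group means over all 12 libraries (6 residual degrees of freedom). Benjamini-Hochberg adjustment ran over 21261 genes, with calls at 0.05. Standard errors are the log2 fold change over the square root of F. Counting error at these depths is not separated from PCR copies. Bounds use 3 counts per library. Alternatives were DESeq2 1.42.0, limma 3.58.1 on log2(FPKM + 1) and log2(FPKM + 0.1), other scalings, no filter, fewer libraries and changed limits.

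Named members are those with the 2 largest values of lowest Pt leaf over highest Cj leaf plus 0.1 FPKM, the 2 highest mean Pt leaf levels, 2 IDs on each side of the leaf ratio limit, neighbouring members, and for 5 contrasts up to 2 higher and 2 lower members with the largest log2 fold change among those called, whose log2 CPM averaged 3 or more, with no overlap between groups. Others are marked as named after their values were seen.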

Additional observations from a re-analysis of the deposited data

Results flagged for a closer look

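For 4 named members the Cj minus Pt log2 fold change in roots lay far from that in stem. The difference between the 2 log2 fold changes was 4.29 for Cs1g16790 and 3.03 for Cs3g11590, and it was -2.73 for Cs2g15450 and -2.08 for Cs8g07230. These IDs were named for their large root differences and the choice of members held the stem ratio near 1, so the gap follows from how they were chosen and is given as a description, with no test.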

How the results depend on the processing

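The number of genes passing the rule depended most on its limits and on single leaf libraries. It was 145 as given, 24 with a leaf ratio of at least 2, 263 with stem ratio limits of 0.67 to 1.5, 114 with a stem minimum of 5 FPKM and 135 on FPKM corrected by TMM, of which 131 were among the 145. Leaving out 1 scion library gave 114 to 371. Leaving out 1 library of the groups compared gave 64 to 76 members called lower in leaf on Cj, 41 to 50 higher and 29 to 30 lower in Cj roots, 75 to 78 higher and 42 to 44 lower in root than stem on Cj, and 61 to 63 higher and 49 to 50 lower on Pt. Under the other alternatives the counts were 87 to 115 in leaf, 47 to 56 and 32 to 39 in roots, 66 to 81 and 41 to 58 for root minus stem on Cj and 52 to 69 and 49 to 65 on Pt, all within 1.5 times of those reported. With DESeq2, 47 members were higher and 32 lower in Cj roots, beside 23.7% and 21.6% of all genes. Across these other alternatives 21.8% to 33.5% of all genes were higher and 19.6% to 33.6% lower in Cj roots. Both upper ends came from fitting the root groups only, where 129 members were tested. For root minus stem, 25.1% to 38.2% were higher on Cj and 25% to 37% on Pt. The shares lower were 35.6% to 55.1% on Cj and 36.4% to 55% on Pt. In leaf 3.01% to 4.1% of all genes were lower on Cj. Leaving out 1 library lowered the shares called among all genes too. All 144 recomputed log2 fold changes of named members kept their direction and their call.

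With a replicate block, 52 members were higher and 33 lower in Cj roots, beside 27.2% and 24.1% of all genes. For root minus stem 81 were higher and 44 lower on Cj, beside 35.5% and 43.3%. On Pt 66 were higher and 54 lower, beside 34.8% and 44.3%. In leaf 104 were lower, beside 4% of all genes. The block changed no member count by over 1.5 times. The replicate numbers are not stated to pair libraries, and deviations of same-numbered libraries correlated between groups at -0.11 to 0.16 across genes.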
